A study of Rattus norvegicus with 6 samples.

Results

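The expression of 9 complement genes that the liver secretes into plasma was examined in livers of animals on a high-fat diet with or without Huazhuo Tiaozhi granule (HTG), a herbal formula. The genes were picked by symbol from the deposited gene table: C3, C4b, Hc, C8a, C8b, C9, Cfb, Cfi and Masp1. Each had 1 row, so 9 of the 32930 genes listed are described. The HFD group (3 libraries) received the high-fat diet and the vehicle sodium carboxymethyl cellulose. The HTG group (3 libraries) received the same diet and HTG, which the treatment field of the labels spells HCG. The labels give 12 weeks for both groups. For rats, the study's methods describe 12 weeks of the diet with gavage only in their later part, so the length of HTG treatment is uncertain. Animal age is not given. The labels name rats, while the RNA-seq paragraph of the study's methods names C57BL/6 J mice and every deposited row carries a mouse Ensembl identifier, so they are described here as mouse genes. The series has no group on a normal diet, so both groups share the diet. The design text describes 6 animals, and each library was taken as 1 animal.

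Complement is a cascade of plasma proteins that tags and lyses microbes and cells. It starts by antibody (C1 and C4), by sugar-binding lectins (with MASP proteases) or by spontaneous turnover of C3 (with factor B), and all routes meet at cleavage of C3 and then C5, after which C6 to C9 form a pore. Hepatocytes make most of the circulating proteins, and several are acute phase proteins, raised by inflammatory cytokines. The 9 genes fall into a family of large proteins (C3, C4b and Hc, the mouse gene for C5), the membrane attack complex (C8a, C8b and C9), and serine proteases (Cfb, Cfi and Masp1). Factor B builds the alternative pathway's C3 convertase, factor I inactivates C3b and C4b, and MASP1 starts the lectin pathway.

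The estimated counts summed to between 50648778 (HTG library 3) and 90563477 (HTG library 2). Because low counts come in steps of about 4, 1 sequenced fragment was taken as worth 4 counts. All 9 genes passed the expression filter, and their lowest count in any library was 7026 (Masp1, HFD library 2), far above the 12 counts, or 3 fragments, that an undetected gene allows. These limits cover counting error only. The hepatocyte markers were abundant. Their summed level, over the 7 of 8 listed markers found in the table, was 75599 to 94003 CPM (counts scaled to the normalised size of each library) in the HFD group and 68147 to 68607 CPM in the HTG group, without overlap. The summed Kupffer cell markers (8 of 8) spanned 616 to 1137 CPM and 437 to 770.0 CPM, and those of other leukocytes 56.5 to 67.5 CPM and 43.2 to 86.1 CPM. Alb held most of the hepatocyte sum. Taken singly, 4 of the 7 hepatocyte markers were lower without overlap and 3 overlapped. Over all genes tested, 15.5% were lower without overlap. Of the 7 hepatocyte markers 2 (Apob and Cps1), and of the 8 Kupffer cell markers 2 (Adgre1 and Cd5l), were lower at an unadjusted p under 0.05, against 12.4% of all genes tested, and of the leukocyte markers none was (edgeR). The summed stellate cell, sinusoidal endothelial and cholangiocyte markers (6 each) overlapped between the groups, with Reln and Epcam lower and Des and Sox9 higher at that threshold. None of the markers in these lists was at or under the detection limit in every library. The part of these markers in the results below was not tested, and in whole liver fewer cells of a type and less RNA per cell cannot be told apart.

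No member differed between the groups at an unadjusted p under 0.05 in edgeR's quasi-likelihood test. Over all 18455 genes tested, 12.4% were lower and 12.3% were higher in the HTG group at that threshold. At an adjusted p under 0.05 the count was also 0, against 2 of all genes (0.0108%). DESeq2 put 3 members (C3, C9 and Cfi) lower and 0 higher at an unadjusted p under 0.05, against 8.82% and 7.81% of the 29720 genes to which it gave a p. limma on FPKM put 2 lower (C9 and Cfi) and 0 higher, against 19.1% and 12.9%. Neither tool gave a member an adjusted p under 0.05. The median log2 fold change of the 9 genes was -0.042, against 0.025 over all genes tested, with 6 values below 0 and 3 above. In 2 genes every HTG library was below every HFD library (C9 and Cfi) and in 1 gene above (C8a), which is 3 of 9. Over all genes tested, 32.1% did not overlap, 15.5% lower and 16.5% higher. With 3 libraries against 3, an exact two-sided permutation test cannot go below p = 0.1.

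**Figure D1:**
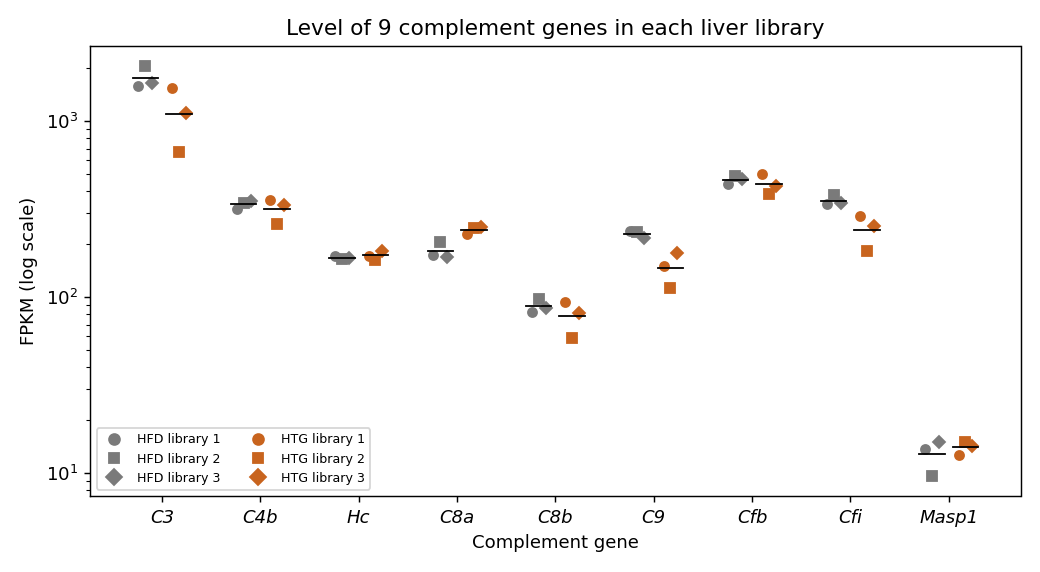
FPKM, the fragments scaled by transcript length and library size (log axis), of the 9 complement genes in each library, grey for HFD and orange for HTG, with horizontal bars at the group means. C3, C9 and Cfi lie lower on FPKM and C8a lies higher in every HTG library, and HTG library 2 holds the lowest C3 value, 666.

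C3 was the most abundant member. Levels between genes are compared here on FPKM, which is per length. C3 (ENSMUSG00000024164, chromosome 17, 57510970 to 57535136, coordinates as the table lists them without a named build) averaged 1435 ± 482 FPKM (SD, n = 6) and ranked 54 among all genes. Cfb followed at 453 ± 42.6 FPKM (SD, n = 6), without overlap with C3 in any library. C4b (327), Cfi (298), C8a (213), C9 (189) and Hc (170.3 FPKM) came next, and each neighbouring pair from C4b to Hc overlapped. C8b averaged 83.7 ± 13.9 FPKM (SD, n = 6), below Hc in 6 of 6 libraries. Masp1 was lowest, at 13.4 ± 2.05 FPKM (SD, n = 6), and ranked 2328.

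Among the C3, C4 and C5 family, C3 had the largest difference and the largest spread. Its level was 1579.8, 2054 and 1658 FPKM in HFD livers 1, 2 and 3, against 1543, 666 and 1110.1 FPKM in HTG livers 1, 2 and 3. On FPKM every HTG library was below every HFD library, with HTG library 1 just under HFD library 1. On CPM, which the test used, HTG library 1 (8505) was above HFD library 1 (8099.5) and the groups overlapped. The mean was 9456 ± 1947 CPM in the HFD group and 6150.5 ± 2583 CPM in the HTG group (SD, n = 3 each). The log2 fold change was -0.62 (95% interval -1.46 to 0.22, adjusted p = 0.333, edgeR). It was -0.97 without HTG library 1, with an unadjusted p under the threshold, and -0.33 without HTG library 2.

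C4b and Hc each overlapped between the groups. C4b (ENSMUSG00000073418, chromosome 17, 34947354 to 34962856), whose product is cleaved in the classical and lectin pathways, had 319, 342 and 351 FPKM in HFD livers, against 357, 260.3 and 334 FPKM in HTG livers. On FPKM HTG library 2 was the lowest of the 6 and HTG library 1 the highest, while on CPM HTG library 3 was the highest. Its log2 fold change was -0.035 (95% interval -0.60 to 0.53, edgeR), an interval that holds ratios from 0.662 to 1.44. C4b has a close paralog, C4a, and the division of reads between them is uncertain. Hc (ENSMUSG00000026874, chromosome 2, 34873343 to 34951450) was the steadiest member, with 171, 165 and 166 FPKM in HFD livers, against 173, 164 and 184 FPKM in HTG livers. The log2 fold change of Hc was 0.10 (95% interval -0.38 to 0.58, edgeR), and its groups overlapped.

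The 3 genes of the membrane attack complex had values in both directions. C9 (ENSMUSG00000022149, chromosome 15, 6474808 to 6528232), whose product polymerises into the pore, had 237, 235 and 219 FPKM in HFD livers, against 151, 113 and 178 FPKM in HTG livers. All 3 HTG values were below all HFD values. Its mean was 610.5 ± 50.5 CPM in the HFD group and 408 ± 119 CPM in the HTG group (SD, n = 3 each), a log2 fold change of -0.58 (95% interval -1.17 to 0.0027, adjusted p = 0.204, edgeR). The unadjusted p of C9, 0.0508, was the smallest of the 9 and lay next to the threshold. In 16 alternative fits it was under the threshold in 7, and the adjusted p ran from 0.0895 to 0.434. The log2 fold change was -0.79 without HTG library 3, with an unadjusted p under the threshold, and -0.38 without HTG library 2.

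C8a and C8b encode chains of the same C8 protein, which also contains the C8g chain. C8a (ENSMUSG00000035031, chromosome 4, 104672876 to 104733592) had 174, 207 and 169 FPKM in HFD livers, against 230.0, 247 and 251 FPKM in HTG livers. All 3 HTG values were above all HFD values. The log2 fold change of C8a was 0.45 (95% interval -0.056 to 0.95, adjusted p = 0.251, edgeR). It was 0.60 without HFD library 2, with an unadjusted p under the threshold. C8b (ENSMUSG00000029656, chromosome 4, 104623514 to 104661745) had 82.4, 98.3 and 87.3 FPKM in HFD livers, against 94.0, 58.5 and 81.8 FPKM in HTG livers, with overlap. Its log2 fold change was -0.14 (95% interval -0.72 to 0.44, edgeR), and it was 0.068 without HTG library 2. The genes lie 11130 bases apart on opposite strands and point toward each other. C8g, from chromosome 2, had a log2 fold change of 0.17 (95% interval -0.24 to 0.58, edgeR) and overlapping groups.

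**Figure D2:**
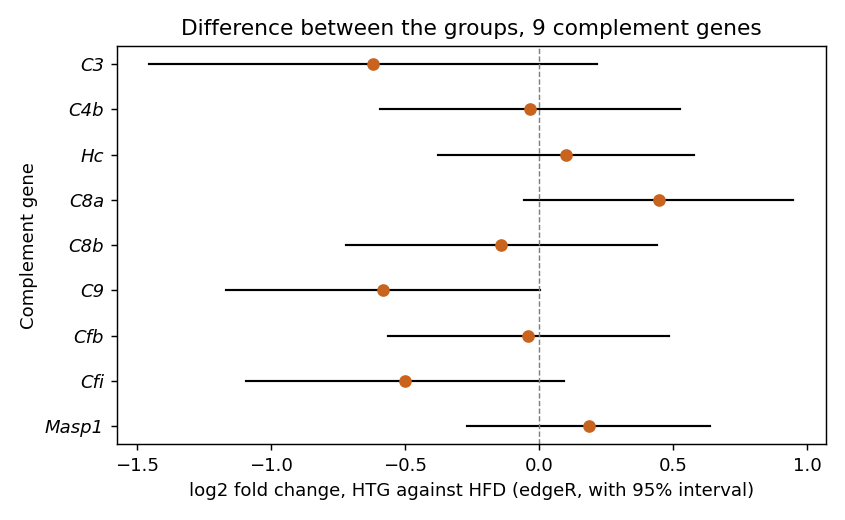
Log2 fold change of each complement gene between the HTG and HFD groups (points) with its 95% interval (lines) from edgeR's quasi-likelihood fit over all genes. Each interval includes 0, and that of C9 ends next to it.

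Among the proteases, Cfi had lower values in the HTG group, and Cfb and Masp1 overlapped between the groups. Cfi (ENSMUSG00000058952, chromosome 3, 129629533 to 129668981) had 339, 382 and 344 FPKM in HFD livers, against 289, 183 and 253 FPKM in HTG livers. No HTG library reached the lowest HFD library. The mean of Cfi was 819 ± 103 CPM in the HFD group and 578 ± 155 CPM in the HTG group (SD, n = 3 each), a log2 fold change of -0.50 (95% interval -1.09 to 0.091, adjusted p = 0.272, edgeR). Without HTG library 2 it was -0.30, and without HTG library 1 it was -0.69 with an unadjusted p under the threshold. Cfb (ENSMUSG00000090231, chromosome 17, 35075350 to 35081494), in the class III region of the major histocompatibility complex as is C4b, had 442, 492 and 469 FPKM in HFD livers, against 501, 386 and 432 FPKM in HTG livers. On FPKM the highest and the lowest Cfb values were both in the HTG group, while on CPM the highest was in HFD library 2. The log2 fold change of Cfb was -0.042 (95% interval -0.57 to 0.48, edgeR). Masp1 (ENSMUSG00000022887, chromosome 16, 23268167 to 23339565) had 13.8, 9.68 and 15.1 FPKM in HFD livers, against 12.7, 15.1 and 14.3 FPKM in HTG livers. Its log2 fold change was 0.18 (95% interval -0.27 to 0.64, edgeR). Its span overlaps Rtp4 on the opposite strand, which had up to 2907 counts. The sample labels and the study's methods describe different library kits, so the use of strand in the counts is uncertain. The Masp1 locus also encodes products that lack the MASP1 protease domain, which a gene total does not separate.

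The lowest CPM of 7 of the 9 members (C3, C4b, Hc, C8b, C9, Cfb and Cfi) was in HTG library 2, and the highest of 5 members was in HFD library 2. The median deviation of the members from their own mean over the 6 libraries was -0.41 (log2 CPM) in HTG library 2 and lay between -0.070 and 0.20 in the other libraries. Within the HTG group C3 spanned 2.51-fold, C9 1.83-fold, C8b 1.74-fold and Cfi 1.72-fold. Within the HFD group no member spanned more than 1.44-fold. C8a and Masp1 were the members not lowest in HTG library 2. Of all genes tested, 21.5% were lowest in HTG library 2. Most genes of the acute phase and coagulation lists were lowest there too. Of the hepatocyte markers, Apob, Cps1, Asgr1, Hnf4a and Serpina1c were lowest there, and Alb and Ttr were not. The summed CPM of 13 acute phase genes was 40350 to 60141 in the HFD libraries and 66746, 28487 and 112259 in HTG libraries 1, 2 and 3, and 11 of the 13 were lowest in HTG library 2. The summed CPM of 16 coagulation genes was 9769 in HTG library 2 and 13214 to 14734 in the others, and 13 of the 16 were lowest there. The part of HTG library 2 in the group values is given by the fits without it, in which C9, Cfi and C3 had log2 fold changes of -0.38, -0.30 and -0.33.

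**Figure D3:**
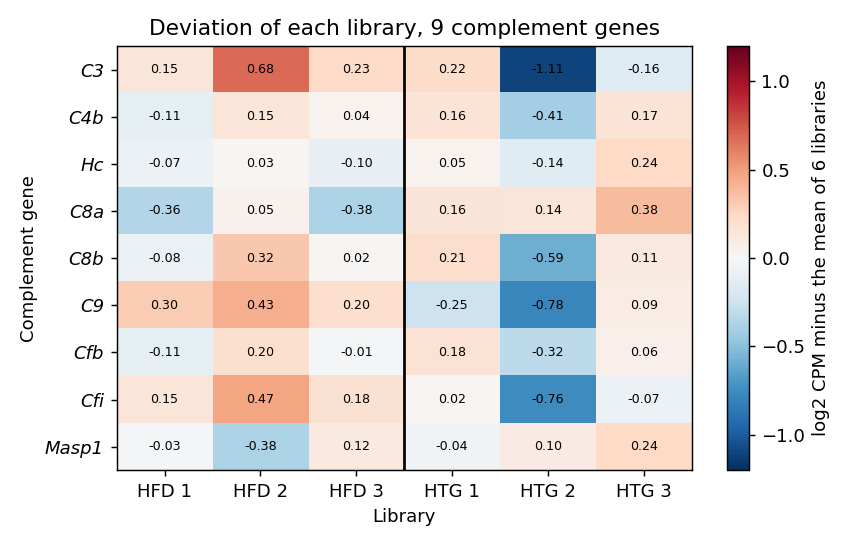
Deviation of each library from the gene's mean over the 6 libraries (log2 CPM, written in each cell and coloured from blue, low, to red, high) for the 9 complement genes. HTG library 2 is low for 7 genes, with C3 at -1.11, and is 0.14 for C8a.

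Ratios of genes within a library do not depend on the scaling between libraries. The ratio of C8a to C8b was 2.11, 2.11 and 1.94 in HFD livers 1, 2 and 3, against 2.45, 4.23 and 3.07 in HTG livers 1, 2 and 3. All HTG ratios were above all HFD ratios. On the log2 scale the mean was 1.03 ± 0.070 in the HFD group and 1.66 ± 0.40 in the HTG group (SD, n = 3 each), a difference of 0.63 (exact two-sided permutation test, p = 0.1, the smallest it can give, and 0.122 adjusted over 11 ratios and shares). The difference was 0.42 without HTG library 2. Against C8g, the remaining chain, neither gene stood apart, in ratios that were added later and not tested. The ratio of C8a to C8g was 1.13, 1.61 and 1.25 in HFD livers, against 1.40, 1.54 and 1.90 in HTG livers, and that of C8b to C8g was 0.535, 0.764 and 0.644 against 0.572, 0.365 and 0.619, both with overlap. The ratio of C3 to C4b was 4.95, 6.00 and 4.73 in HFD livers, against 4.32, 2.56 and 3.32 in HTG livers (exact permutation test, p = 0.1, adjusted p = 0.122). All HTG ratios were again on one side of all HFD ratios, here below. How often the ratio of any 2 genes keeps these groups apart was not examined, and 32.1% of single genes tested did so on CPM.

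A further pair of ratios was chosen after the values were seen and is given without a test. The ratio of C9 to C8a, the pore protein against a chain of the C8 on which it assembles, was 1.37, 1.13 and 1.29 in HFD livers, against 0.656, 0.457 and 0.709 in HTG livers. It was above 1 in every HFD library and below 1 in every HTG library. C9 was lower and C8a higher in every HTG library, so the groups could not overlap in this ratio. The ratio of Cfb to Cfi, an activating against an inactivating protease, was 1.30, 1.29 and 1.36 in HFD livers, against 1.73, 2.11 and 1.71 in HTG livers. The SD of that ratio was 0.040 in the HFD group and 0.228 in the HTG group.

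**Figure D4:**
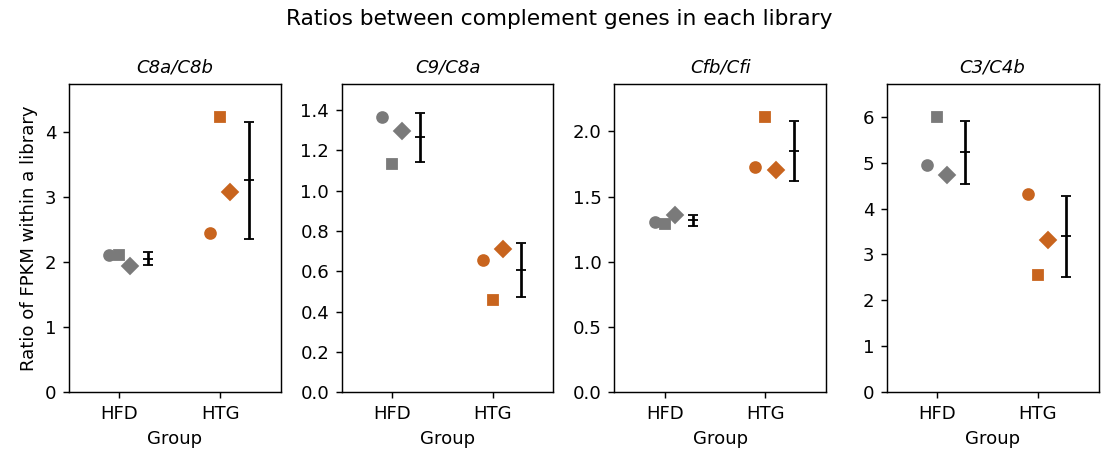
Ratio of FPKM between complement genes within each library, for C8a to C8b, C9 to C8a, Cfb to Cfi and C3 to C4b, with the group mean and SD (black bars, n = 3 each). The groups do not overlap in any of the 4 ratios shown, and HTG library 2 is farthest from the HFD group in each. How often ratios of other gene pairs do so was not examined. C9 to C8a and Cfb to Cfi were chosen after the values were seen. C9 was lower and C8a higher in every HTG library, so their ratio could not overlap. The ratios of C8a and C8b to C8g, which are not shown, overlap.

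C3 took 47.0, 51.6 and 47.7% of the summed FPKM of the 9 genes in HFD livers, against 46.1, 31.8 and 39.1% in HTG livers. The shares add to 100%, so a lower share of C3 raises those of the others. The share of Cfi was 9.85 ± 0.26% in the HFD group and 8.76 ± 0.15% in the HTG group (SD, n = 3 each), lower in every HTG library although that of C3 was lower too (exact permutation test, p = 0.1, adjusted p = 0.122). The same test gave the same p and adjusted p for the shares of C3, C4b, Hc, C8a, C8b and Cfb. Apart from C3, these were higher in every HTG library. Only the shares of C9 and Masp1 overlapped. The 9 genes together held 0.761 to 0.929% of all FPKM in the HFD libraries and 0.397 to 0.700% in the HTG libraries, without overlap. On counts the shares overlapped, at 1.52 to 1.82% and 0.952 to 1.56%, and so did the summed FPKM of the 8 members other than C3, at 1778 to 1930.2 and 1426 to 1807. The sum of FPKM over all genes was itself larger in the HTG libraries, 478690 to 527047 against 407973 to 441305.

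Around the 9 members, 45 other complement genes were listed by role, 44 were found in the table (all but Cd55b) and 43 were tested. At an unadjusted p under 0.05, 2 were lower and 2 were higher in the HTG group, or 4.65% each, against 12.4% and 12.3% of all genes. None had an adjusted p under 0.05 (edgeR). Their median log2 fold change was -0.14, with 27 values below 0 and 16 above. In 7 of the 43 every HTG library was below every HFD library on CPM, and in 1 above. Over all genes tested, these shares were 15.5% and 16.5%. Cfd, the gene of factor D, was not tested, with 28 counts in HTG library 1 and 0 in the others. Vtn (vitronectin, an inhibitor of the terminal complex) was the most abundant of the other complement genes, at a mean of 1926 FPKM, with a log2 fold change of 0.25. That mean was above the mean of C3, but in HFD library 3 C3 (1658 FPKM) was above Vtn (1503 FPKM).

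C1rb, a paralog of the C1r protease gene C1ra, was lowest in p. It had 23.1, 25.1 and 29.8 CPM in HFD livers, against 13.3, 13.5 and 15.3 CPM in HTG livers. The groups did not overlap, and the log2 fold change was -0.89 (95% interval -1.27 to -0.51, adjusted p = 0.0568, edgeR). It stayed under an unadjusted p of 0.05 in each of 16 alternative fits. C1ra was at 365 ± 43.5 and 296 ± 35.5 CPM in the HFD and HTG groups (SD, n = 3 each) with a log2 fold change of -0.30, and the split of reads between the paralogs is uncertain.

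The other gene lower at that threshold was a regulator. Cpn2, a subunit of the carboxypeptidase N that trims C3a and C5a, had 301 ± 13.1 CPM in the HFD group and 185 ± 56.5 CPM in the HTG group (SD, n = 3 each), a log2 fold change of -0.70 (adjusted p = 0.138, edgeR). Of the 12 fluid-phase regulators, 1 was lower, 0 were higher and 11 did not pass the threshold, and in 4 every HTG library was below every HFD library. Over all genes tested, 12.4% were lower at that threshold and 15.5% were lower without overlap. The higher genes were Mbl1, a mannose-binding lectin, at 147 ± 42.6 and 240.3 ± 79.2 CPM with overlap, and C7, a terminal component, at 0.683 ± 0.222 and 1.32 ± 0.0615 CPM without overlap (SD, n = 3 each). Their log2 fold changes were 0.71 and 0.95 (adjusted p = 0.202 and 0.194, edgeR). C7 rested on 31 to 125 counts per library. The calls of Cpn2, Mbl1 and C7 were each lost when some single libraries were left out. The log2 fold change of Cpn2 without HFD library 3 was -0.68, and it was -0.48 and -0.73 when HTG library 2 and HTG library 3, respectively, were dropped. The call of Mbl1 needed HFD libraries 1 (0.66) and 3 (0.53) and HTG libraries 1 (0.65) and 3 (0.46), with the value after dropping each in parentheses. That of C7 needed HFD libraries 2 (1.03) and 3 (0.70) and every HTG library (0.91 to 0.97). The call of C7 was also lost with DESeq2 (0.92), with no filter (0.94), with RLE size factors (0.92) and in unfiltered limma (0.74), and that of Mbl1 with RLE size factors (0.68).

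The remaining roles held no gene past the threshold. C4a, the paralog of C4b, had 74.0 ± 39.1 CPM in the HFD group and 175 ± 137 CPM in the HTG group (SD, n = 3 each), with 333 CPM in HTG library 3. On the log2 scale the difference was 1.24 (adjusted p = 0.228, edgeR). Of the 6 receptors, Vsig4, a Kupffer cell receptor for C3b, was the most abundant, at 29.8 FPKM. Of the 6 membrane regulators it was Cd59a, at 20.6 FPKM with a log2 fold change of -0.34. In the recognition role it was Mbl2 (241 FPKM, log2 fold change -0.35), among the proteases C1s1 (193 FPKM, -0.025) and among the terminal genes C8g (146 FPKM).

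**Figure D5:**
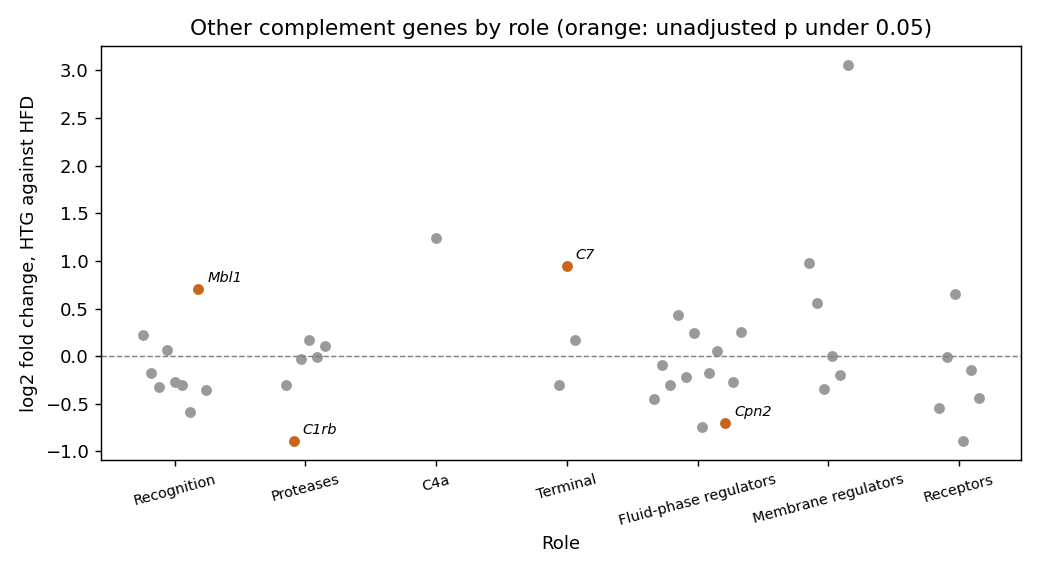
Log2 fold change of the 43 tested complement genes other than the 9 members, grouped by role, with genes at an unadjusted p under 0.05 in orange and named. Of these 4 genes, C1rb and Cpn2 are below 0 and Mbl1 and C7 above, and the highest point, Cr2 at 3.06, rests on at most 47 counts.

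The authors' table annotates 90 genes with the KEGG entry Complement and coagulation cascades. Without the 9 members, 77 of the other 81 were tested, of which 9 were lower (11.7%) and 2 were higher (2.60%) at an unadjusted p under 0.05, against 12.4% and 12.3% of all genes tested, and the median log2 fold change was -0.20. In 19 of the 77 every HTG library was below every HFD library on CPM, and in 2 above. Over all genes tested, these shares were 15.5% and 16.5%. Of the 16 coagulation genes, 3 were lower (18.8%) and 0 were higher, against the same 12.4% and 12.3%, with a median of -0.23. Without overlap on CPM, 6 of the 16 were lower and 1 was higher, against the same 15.5% and 16.5%. Of the 13 acute phase genes none passed the threshold in edgeR, and all 13 overlapped between the groups. Their median was 0.62, with 11 values above 0. The medians of the complement members (-0.042) and of all genes tested (0.025) both lay between those of the coagulation and acute phase lists. The differences between the lists were not tested. The 5 genes outside complement most like the members' median pattern, of 2402 genes with at least 50 CPM compared, were Psmc2, F10, Psmd12, Diaph1 and Txnl1. Their root mean square difference from that pattern over the 6 libraries was 0.064 to 0.088 on the log2 scale. F10 encodes a coagulation factor secreted by hepatocytes, and Psmc2 and Psmd12 encode proteasome subunits.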

How the data were processed

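Liver RNA of 3 HFD and 3 HTG animals was sequenced as paired ends. Per the labels, HISAT2, StringTie and SAMtools and the build mRatBN7.2 were used, without versions or roles, although the rows are mouse genes. In the table that the authors deposited, each gene has an estimated count for every library, as a whole number without scaling between libraries, and an FPKM value, scaled by transcript length and library size. Filters and counting options are not given in the sources used here. Every value column belonged to these samples.

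The counts were tested as whole numbers over all genes with edgeR 4.0.16 in R 4.3.3 (TMM scaling, filterByExpr, glmQLFit and glmQLFTest, group as the only term) with Benjamini-Hochberg adjustment. Calls were counted at an unadjusted p under 0.05, the threshold of the study's statistics, and intervals are at 95%. CPM are counts scaled to the normalised library size. Depth was 12662194 to 22640869 fragments per library, taken as counts divided by 4. Alternatives were RLE and upper-quartile scaling, DESeq2 1.42.0, a minimum of 10 counts in each library, no filter, a replicate block, each library left out, limma 3.58.1 on log2(FPKM + 0.1) or log2(FPKM + 1) with a mean FPKM of at least 1 or no filter, counts divided by 4 and other thresholds. C8a/C8b from counts was added later. The ratios of C8a and C8b to C8g were also added later, as were C9/C8b and C3/Hc. In C9/C8b and C3/Hc every HTG library was below every HFD library, and they are not described further. The scripts were tested on simulated data.

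The members and lists were chosen with earlier results of these data known. The text names all members and, of the other complement genes, those past the threshold, those not tested and the most abundant of each role. A listed complement gene is not reported here and is left out of the counts of other complement genes. C9/C8a, Cfb/Cfi, C1ra, C4a and Cr2 were named after their values were seen. RefSeq tables of the rat were not used, so no sequence is printed.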

Additional observations from a re-analysis of the deposited data

How the results depend on the processing

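Over the alternatives, 124 of 144 fold changes of the members kept their direction and side of the threshold, 15 passed an unadjusted p under 0.05 that they did not pass in edgeR as described, and 5 turned. C4b turned without HFD library 2 (0.021) and without HTG library 2 (0.13), Cfb without the same libraries (0.044 and 0.090), and C8b without HTG library 2 (0.068). Without 1 library the log2 fold changes of these genes ran from -0.17 to 0.13, -0.19 to 0.090 and -0.34 to 0.068. The count of members lower, 0, was 1 with RLE size factors, no filter and unfiltered limma, 2 with limma on log2(FPKM + 0.1) or log2(FPKM + 1), 3 with DESeq2, and 0 to 2 when 1 library was left out. The count of members higher, 0, was 1 with upper-quartile scaling and 0 to 1 when 1 library was left out. The members' median ran from -0.19 to 0.090 without 1 library. For the other complement genes, the count lower (2) was 1 to 6 without 1 library, and the count higher (2) was 0 to 3. The count higher was 0 with RLE size factors and 1 in each limma fit. Their median was -0.26 to -0.052 without 1 library. The adjusted p under 0.05 left 0 lower and 0 higher of them, and an adjusted p under 0.1 left 1 and 0. An unadjusted p under 0.05 together with an absolute log2 fold change over 1 left 0 and 0. Over all genes, with 2288 lower and 2275 higher at an unadjusted p, these thresholds gave 1 and 1, 1002 and 999, and 716 and 917, and limma on log2(FPKM + 0.1) and log2(FPKM + 1), with fewer genes tested, gave 1413 and 1416 higher. At an adjusted p under 0.05, 2 genes passed in edgeR as described, 1697 with DESeq2, 878 and 884 in those limma fits, 0 in unfiltered limma, 822 with counts divided by 4, 684 with at least 10 counts in every library, 162 with no filter, and 0 to 653 without 1 library, the 653 without HTG library 1. Without 1 library there were 1545 to 2866 lower and 1541 to 2134 higher. Apart from the fewer genes or libraries, the cause was not tested.

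Labels with the same replicate number showed no clear pairing of the libraries. Deviations from the group means correlated, across genes, with r of -0.078, -0.073 and 0.10 for numbers 1, 2 and 3. Only the libraries numbered 3 correlated best with each other. The deviations of the 3 libraries of a group sum to 0, so such weak correlations cannot decide whether libraries were paired. With the replicate block, 1941 genes were lower and 1926 higher at an unadjusted p, 0 members were called in either direction, the other complement genes called were 3 lower and 1 higher, and Mbl1 and C7 lost their unadjusted p under 0.05 with log2 fold changes of 0.69 and 0.99, against 0.71 and 0.95 without the block. The difference in log2 C8a/C8b lay between 0.42 and 0.81 without 1 library. With 3 libraries a group, the 95% intervals of the members were 0.91 (Masp1) to 1.67 (C3) wide on the log2 scale.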
